A study of Mus musculus with 21 samples.

Results

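Rcn2, Gng5, Rd3 and Dcpp1 are the 4 genes described here, out of 24047 in a table of RNA-seq counts. The cells were SMB21, established from a mouse medulloblastoma of the SHH (sonic hedgehog) type. They were picked for their change in cells that received a hairpin against Hdac2: beside Hdac2 itself, their difference from the control hairpin was among the most stable under other settings. That difference is therefore given below as a description, with no test. Levels with a hairpin against Hdac1 and with a drug were not part of that choice.

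The drug groups received JNJ (quisinostat, an inhibitor of histone deacetylases) or DMSO, in which the drug is dissolved, and were taken after 2 h or 24 h. In the hairpin groups a virus carried an shRNA, a small hairpin that silences a matching transcript. Its target was luciferase in the control (shLuc), Hdac1 in shHdac1 and Hdac2 in shHdac2, and all 3 groups were selected with puromycin. All 7 groups are SMB21 cells grown in DMEM/F12 with B-27, with 3 libraries each and 21 in all. The labels name 1 hairpin group per target and give no hairpin sequence or clone, so loss of Hdac2 and any other effect of that virus cannot be told apart. Nothing in the labels says that the libraries of a group are separate cultures, so p-values rest on a spread between libraries that may be only technical.

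Histone deacetylases remove acetyl groups from histone tails and work in co-repressor complexes; HDAC1 and HDAC2 are close relatives that share most of these complexes. The 4 genes have unrelated products. RCN2 (reticulocalbin 2) is an EF-hand calcium-binding protein of the secretory pathway, in the CREC family. GNG5 is a gamma subunit of heterotrimeric G proteins, which pairs with a beta subunit to carry signals from receptors in the cell membrane. RD3 binds the guanylate cyclases of photoreceptors, holds them inactive and takes part in their transport, and its loss causes retinal degeneration. DCPP1 (demilune cell and parotid protein 1) is a secreted protein best known from salivary glands, with close copies in DCPP2 and DCPP3.

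The promoter windows of the 4 genes are shown because 2 of the genes were lower and 2 higher with the Hdac2 hairpin, and that of Dcpp3 because it is a near copy of Dcpp1's. Each runs from 250 bases before to 50 after a start site in RefSeq (GRCm38.p6, plus strand, 300 bases). Rcn2 lies at chr9:56041595-56041894, Gng5 at chr3:146499586-146499885, Rd3 at chr1:191977120-191977419, Dcpp1 at chr17:23880626-23880925 and Dcpp3 at chr17:23917208-23917507. Capitals mark 4 motifs searched on both strands. They are the GC box, spelled GGGCGG, the CCAAT box, the TATA box, spelled TATAA, and the E-box, spelled CACGTG. No matches overlap.
Rcn2: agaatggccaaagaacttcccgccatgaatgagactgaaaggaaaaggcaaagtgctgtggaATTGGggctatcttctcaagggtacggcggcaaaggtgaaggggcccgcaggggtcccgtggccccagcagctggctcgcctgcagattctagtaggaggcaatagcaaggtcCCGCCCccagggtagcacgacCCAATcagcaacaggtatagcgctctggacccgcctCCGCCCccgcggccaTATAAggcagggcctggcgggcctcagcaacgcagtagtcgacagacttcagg
Gng5: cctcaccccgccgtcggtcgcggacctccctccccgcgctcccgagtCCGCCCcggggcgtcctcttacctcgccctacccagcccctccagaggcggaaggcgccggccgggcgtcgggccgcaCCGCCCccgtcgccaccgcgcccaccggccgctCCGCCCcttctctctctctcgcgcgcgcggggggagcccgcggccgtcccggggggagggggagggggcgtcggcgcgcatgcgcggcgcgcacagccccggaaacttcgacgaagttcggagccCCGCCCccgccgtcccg
Rd3: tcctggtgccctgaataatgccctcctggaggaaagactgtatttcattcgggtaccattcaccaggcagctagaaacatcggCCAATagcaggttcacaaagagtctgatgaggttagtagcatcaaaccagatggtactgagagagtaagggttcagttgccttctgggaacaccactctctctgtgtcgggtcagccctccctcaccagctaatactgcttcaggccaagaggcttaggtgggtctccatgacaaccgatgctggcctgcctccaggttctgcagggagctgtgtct
Dcpp1: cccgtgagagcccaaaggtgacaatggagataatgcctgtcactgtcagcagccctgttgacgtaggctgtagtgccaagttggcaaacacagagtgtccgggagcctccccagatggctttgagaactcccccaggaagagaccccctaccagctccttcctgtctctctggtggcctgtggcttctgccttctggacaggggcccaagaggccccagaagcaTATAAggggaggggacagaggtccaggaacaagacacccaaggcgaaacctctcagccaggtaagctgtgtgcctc
Dcpp3: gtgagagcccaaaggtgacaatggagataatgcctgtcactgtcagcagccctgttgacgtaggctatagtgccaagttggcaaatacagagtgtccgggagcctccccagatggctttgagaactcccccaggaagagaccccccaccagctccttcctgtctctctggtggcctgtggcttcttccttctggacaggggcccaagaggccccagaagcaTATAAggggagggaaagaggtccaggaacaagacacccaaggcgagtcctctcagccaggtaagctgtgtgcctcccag
The Gng5 window was a dense CpG island, with 52 CpG dinucleotides, 80.7% G or C and 4 GC boxes. The median over 32851 RefSeq windows was 7 CpG and 52.7% G or C, and the Gng5 count stood at percentile 99.4. The Rcn2 window held 16 CpG (percentile 67), 2 GC boxes, 2 CCAAT boxes and 1 TATA box. The windows of the 2 genes that were higher were poor in CpG, with 4 each for Rd3 and Dcpp1 (percentile 31.4). Rd3 had 1 CCAAT box, while Dcpp1 and Dcpp3 had 1 TATA box each. Of all windows, 35.7% held a GC box, 37.4% a CCAAT box, 24.9% a TATA box and 7.15% the E-box, which was in none of the 5 shown. These letter matches are a description and say nothing of which factors bind there.

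The hairpins lowered their own targets. Hdac1 read 88.8, 94.8 and 100.5 CPM (counts relative to the scaled total of the library) in shLuc and 32.6, 28.6 and 30.5 in shHdac1. Hdac2 read 308.6, 300.8 and 344 CPM in shLuc and 49.1, 48.0 and 53.8 in shHdac2, with no overlap in either case. With shHdac1, Hdac2 was at 325, 336 and 302 CPM, a log2 change of 0.01 (adjusted p = 0.977, edgeR's quasi-likelihood test). With JNJ at 2 h Hdac2 itself fell, from 390.5, 357 and 393 CPM to 211, 252 and 315.5 (log2 change -0.55, SE 0.16, adjusted p = 0.0376, edgeR). Libraries held 23094799 to 39341784 counts. In the hairpin groups the replicate 3 libraries stood apart on the first principal component (43.95% of the variance, at 22.4 to 55.4, against -33.1 to -2.45 for replicates 1 and 2). All 9 granule progenitor markers, such as Atoh1 and Zic1, were above 1 CPM in every group. Their summed level was 1468 to 1654 CPM in shLuc and both DMSO groups. It was 1292 to 1419 CPM in the other hairpin groups and 771 to 1225 with JNJ. Markers of other cell types moved with JNJ at 24 h too. The 4 astrocyte markers summed to 217 to 267 CPM with DMSO and 106 to 139.5 with JNJ, the 3 fibroblast markers to 0.254 to 1.40 and 8.12 to 24.1, and the 8 photoreceptor markers to 0.762 to 1.61 and 2.40 to 4.35. The part of these shifts in the results below was not tested, and in bulk RNA fewer cells of a type and less RNA per cell cannot be told apart.

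**Figure D1:**
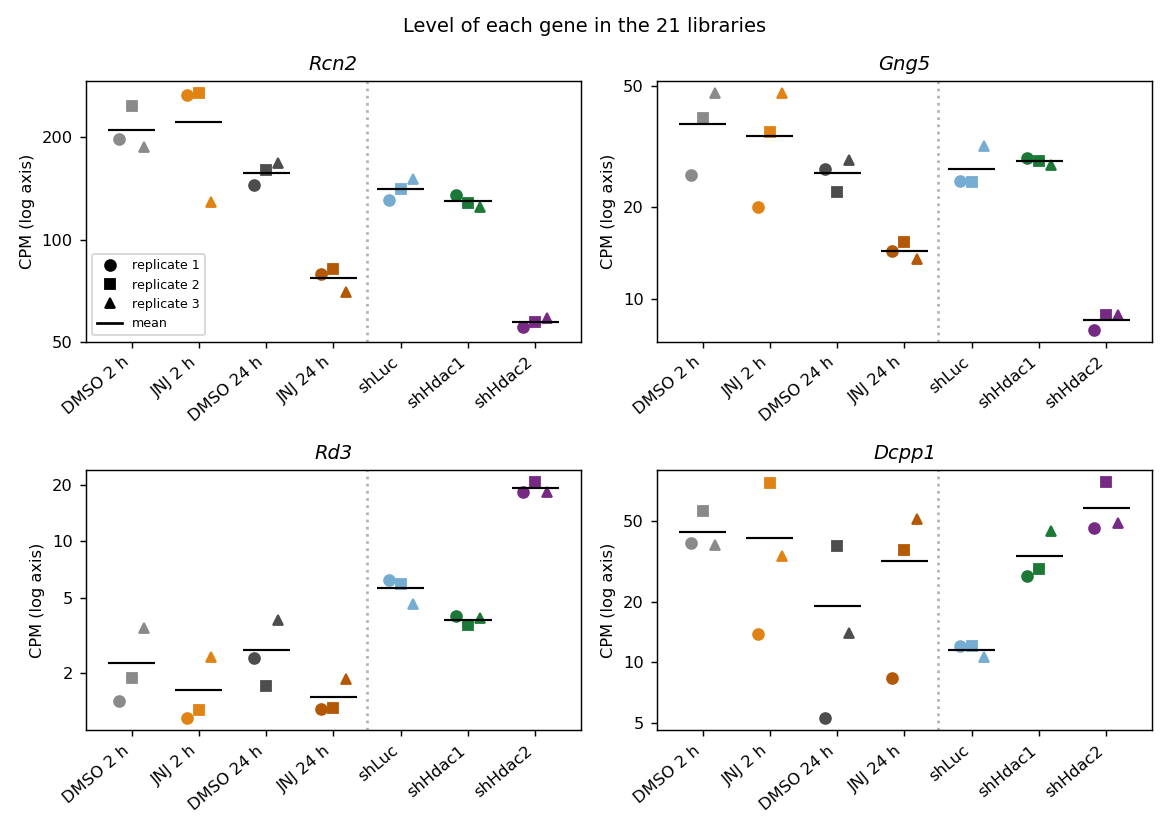
Level of each gene (CPM, log axis) in the 21 libraries by group, with replicates 1 to 3 as circles, squares and triangles and group means as lines; the dotted line parts the drug groups from the hairpin groups. Rcn2 and Gng5 are lowest in shHdac2 and next lowest in JNJ 24 h, and Rd3 is highest in shHdac2. Dcpp1 is spread widely within JNJ 2 h and both 24 h groups.

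Across the comparisons that a test can be given for, 3 calls were made on the 4 genes. With JNJ at 2 h, 0 of 4 were called at an adjusted p under 0.05 by edgeR (0 at an unadjusted p under 0.05, and 0 by DESeq2), where 13.7% of the 14467 genes tested were called. With JNJ at 24 h, 2 of 4 were called, both lower, where 33.1% of all genes tested were called. That share of members is not far from the background. With shHdac1, 1 of 4 was called, where 0.749% of 13612 genes tested were. This comparison uses the same shLuc libraries as the one the genes were picked from, so the values are set side by side and the hairpins are not independent of each other. With shHdac2, where the genes were picked, 1.68% of all genes tested were called. Its libraries did not overlap those of shLuc for 21.2% of all genes tested.

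Rcn2 fell with JNJ at 24 h and passed no test at 2 h or with the Hdac1 hairpin. At 24 h it read 145, 159.9 and 168 CPM in DMSO and 79.0, 81.95 and 69.9 in JNJ. The highest JNJ library lay far below the lowest DMSO library, as was the case for 55.5% of all genes tested, whose groups did not overlap in 1 direction or the other. The log2 change was -1.03 (SE 0.24, 95% interval -1.56 to -0.51, adjusted p = 0.0059, edgeR), a level 0.488 times that of DMSO, and lower in 3 of 3 JNJ libraries.

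At 2 h Rcn2 read 197, 248 and 187 CPM in DMSO and 268, 271 and 129 in JNJ. Replicates 1 and 2 of JNJ were above every DMSO library and replicate 3 was below all of them. The log2 change was 0.08 (SE 0.24, interval -0.44 to 0.60, adjusted p = 0.858, edgeR). The JNJ effects at 24 h and at 2 h differed by -1.11 (SE 0.34, adjusted p = 0.0786, edgeR), which missed the threshold, as it did for all 4 genes, where 4.24% of all genes tested passed. Of the 4 genes, 1 (Rcn2) passed at an unadjusted p under 0.05 and 1 by DESeq2, where Rcn2 had an adjusted p of 0.028. For Rcn2 the difference also passed with the replicate number as a block (-1.10, adjusted p = 0.0269, edgeR) and in a fit of all 21 libraries (-1.11, adjusted p = 0.0134, edgeR). Without replicate 3 of JNJ 2 h the difference was -1.39 (adjusted p = 0.00718, edgeR). That was the 1 of 12 fits with a library left out that passed, and the others had adjusted p up to 0.176 (edgeR). The difference also missed with RLE scaling (adjusted p = 0.0806), upper-quartile scaling (0.143), unscaled totals (0.143) and no filter (0.0813), all by edgeR.

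With the hairpins, Rcn2 read 131, 141 and 151 CPM in shLuc, 135, 128.5 and 125 in shHdac1, and 55.3, 57.0 and 58.8 in shHdac2. The shHdac1 libraries lay within or just under the shLuc range, while the shHdac2 libraries were below both groups. The description for shHdac2 is a log2 difference from shLuc of -1.30 (SE 0.08), or 0.405 times the level. For shHdac1 it was -0.12 (SE 0.08, interval -0.30 to 0.05, adjusted p = 0.611, edgeR). The shHdac1 interval reaches no further down than -0.30. The drop at 24 h of JNJ and the drop with shHdac2 come from libraries that share no samples.

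On a scale set over all 21 libraries, mean Rcn2 levels ran from shHdac2 (57.2 CPM) and JNJ 24 h (76.2) to shHdac1 (129.6), shLuc (141) and DMSO 24 h (157), then DMSO 2 h (212) and JNJ 2 h (222). The lowest 2 groups were each apart from the next. The groups shHdac1, shLuc and DMSO 24 h overlapped in turn, and so did both 2 h groups. Drug and hairpin groups also differ in virus and puromycin, so this order is a description.

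No other gene on Rcn2's list was called lower with JNJ or with either hairpin. The list held 14 genes, all tested, of the CREC family and the calcium-binding proteins of the endoplasmic reticulum lumen. With JNJ at 24 h 2 of the 14 rose and 1, Rcn2, fell, and the median log2 change was 0.30 (0.01 over all genes). Of all genes tested, 18.1% rose and 15.1% fell, so these counts are near or below the background. The 2 that rose were Rcn3, another reticulocalbin, by 0.64 (SE 0.22, adjusted p = 0.0429, edgeR), and Calr, the chaperone calreticulin, by 0.83 (SE 0.23, adjusted p = 0.0137, edgeR). Rcn1, the third reticulocalbin, read -0.17 (SE 0.27, adjusted p = 0.669, edgeR). At 2 h 3 of 14 rose and 0 fell, where 9.11% of all genes tested rose and 4.59% fell. They were Calu (calumenin, log2 change 0.86, adjusted p = 0.0267), Calr (0.77, adjusted p = 0.0385) and Nucb1 (nucleobindin 1, 0.96, adjusted p = 0.0384), all by edgeR. With shHdac1 0 of 14 were called by edgeR (1 at an unadjusted p under 0.05, 0 by DESeq2), with a median of 0.00. With shHdac2 the list's median was -0.09.

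Gng5 also fell with JNJ at 24 h, though less firmly. It read 26.8, 22.5 and 28.6 CPM in DMSO and 14.4, 15.4 and 13.5 in JNJ at 24 h. All 3 JNJ libraries were below all 3 DMSO libraries, and 55.5% of all genes tested had groups without overlap in that comparison. The log2 change was -0.85 (SE 0.29, interval -1.48 to -0.22, adjusted p = 0.0394, edgeR), or 0.555 times the level. The call was lost with upper-quartile scaling (-0.74, adjusted p = 0.0579) or unscaled totals (-0.69, adjusted p = 0.0687). It was also lost without DMSO 24 h replicate 1 or 3, or without any 1 of the JNJ 24 h libraries (adjusted p up to 0.113).

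At 2 h Gng5 read 25.5, 39.3 and 47.4 CPM in DMSO and 20.0, 35.3 and 47.4 in JNJ, groups that overlapped over most of their range. In each the replicate 1 library was the lowest and the replicate 3 library the highest. The log2 change was -0.13 (SE 0.29, interval -0.75 to 0.49, adjusted p = 0.805, edgeR). The difference of the 24 h and 2 h effects was -0.72 (SE 0.41, adjusted p = 0.327, edgeR).

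With the hairpins, Gng5 read 24.4, 24.2 and 31.8 CPM in shLuc, 29.0, 28.4 and 27.4 in shHdac1, and 7.93, 8.85 and 8.85 in shHdac2. Every shHdac1 library fell inside the shLuc range and every shHdac2 library was under 9 CPM. The description for shHdac2 is a log2 difference of -1.65 (SE 0.13), or 0.319 times the level. For shHdac1 it was 0.08 (SE 0.13, interval -0.21 to 0.37, adjusted p = 0.889, edgeR). In the order over 21 libraries shHdac2 (8.56 CPM) and JNJ 24 h (14.3) were again lowest and each apart from the next. The other 5 groups, from DMSO 24 h (25.9) to DMSO 2 h (37.7), overlapped with their neighbours. Of 2759 windows of 75 bases (the read length) in Gng5 transcripts, 55 (1.99%) also occur in transcripts of 4 other genes, pseudogene Gng5-ps among them.

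Among the G protein gamma subunits, 9 of 12 were expressed enough to test. With JNJ at 24 h 3 of 9 rose and 2 fell (median 0.11), where 18.1% of all genes tested rose and 15.1% fell. Gng10 fell with Gng5, from 62.8 to 25.7 CPM (log2 change -1.29, SE 0.27, adjusted p = 0.00324, edgeR). Gng7, a subunit of striatal and other neuronal G proteins, rose from 19.1 to 52.9 CPM (1.47, SE 0.23, adjusted p = 0.000629, edgeR). Gng8 rose from 0.197 to 4.11 CPM (4.37, SE 0.74, adjusted p = 0.000902, edgeR) and Gng4 from 0.216 to 2.73 CPM (3.65, SE 0.70, adjusted p = 0.00189, edgeR). At 2 h Gng8 was the 1 member that rose (2.36, SE 0.71, adjusted p = 0.044, edgeR). In shHdac2, Gng7 read 14.3 CPM against 19.5 in shLuc (log2 difference -0.44, SE 0.11), Gng10 56.1 against 66.9 (-0.25, SE 0.10) and Gng12 193 against 176 (0.13, SE 0.13). Over the 9 tested the median difference there was 0.13 (-0.01 over all genes), so the list as a whole did not fall with Gng5. Gng7 stood higher in shHdac1 than in shHdac2, by 0.73 (SE 0.11).

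Of 6 beta subunits, the partners of gamma subunits, 0 were called by edgeR with JNJ at either time or with either hairpin. With JNJ 1 of the 6 was under an unadjusted p of 0.05 at each time, and 1 was called by DESeq2 at each time. With shHdac1 both counts were 0. Of 13 alpha subunits, 3 rose with JNJ at 24 h and 0 fell (median 0.27), a share near the 18.1% of all genes tested that rose. They were Gnal, the olfactory and striatal stimulatory subunit (0.579 to 8.59 CPM, log2 change 3.88, SE 0.51, adjusted p = 0.00022, edgeR), Gnat1, rod transducin (3.09, SE 0.58, adjusted p = 0.00166, edgeR), and Gnaz (1.25, SE 0.28, adjusted p = 0.00498, edgeR). Gnaz, an inhibitory subunit, also rose at 2 h (1.51, SE 0.28, adjusted p = 0.00448, edgeR). Of 12 alpha subunits tested with the hairpins, 0 were called by edgeR with either one (for shHdac1, 1 at an unadjusted p under 0.05 and 0 by DESeq2).

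Rd3 was a low-level gene, higher with the Hdac2 hairpin and with negative log2 changes for the Hdac1 hairpin and for JNJ at both times. It read 6.27, 5.94 and 4.67 CPM in shLuc, 4.00, 3.61 and 3.92 in shHdac1, and 18.3, 20.8 and 18.3 in shHdac2. The shHdac2 libraries were above both other groups and the shHdac1 libraries below all of shLuc. The description for shHdac2 is a log2 difference of 1.76 (SE 0.16), a 3.40-fold higher level. For shHdac1 the change was -0.55 (SE 0.16, interval -0.91 to -0.19, adjusted p = 0.188, edgeR), which did not pass, and groups that did not overlap were found for 16.7% of all genes tested there. Without shLuc replicate 3, the library farthest out on the first component, it was -0.66 (adjusted p = 0.0185, edgeR). That was the 1 of 6 fits with a library left out that passed, and the others had adjusted p up to 0.504 (edgeR).

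With JNJ, Rd3 levels were low throughout. At 2 h it read 1.42, 1.88 and 3.45 CPM in DMSO and 1.15, 1.28 and 2.42 in JNJ, a log2 change of -0.47 (SE 0.46, interval -1.48 to 0.53, adjusted p = 0.533, edgeR). At 24 h it read 2.42, 1.71 and 3.84 CPM in DMSO and 1.30, 1.31 and 1.85 in JNJ. The highest JNJ library lay above the lowest DMSO library. The change was -0.84 (SE 0.47, interval -1.84 to 0.17, adjusted p = 0.188, edgeR). With the replicate number as a block it was -0.78 (adjusted p = 0.0484, edgeR), and JNJ was below DMSO of the same number in 3 of 3 pairs. The lowest Rd3 count in any library was 35. Within the drug groups the highest library stood 1.429 to 2.425 times over the lowest. The part of counting error in this spread was not tested.

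Over all 21 libraries the JNJ and DMSO groups held the 4 lowest Rd3 means (1.47 to 2.65 CPM) and overlapped in turn. They were followed by shHdac1 (3.85), which overlapped DMSO 24 h, and then shLuc (5.63) and shHdac2 (19.2), each apart from the group before. In GENCODE M21, 1378 of 5305 windows of 75 bases in Rd3 transcripts (26.0%) also lie, counted on either strand, in the antisense gene Gm26670 at the 3′ end of Rd3. No source used here gives the strand that was counted, so reads of the pair cannot be told apart.

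Rd3's partners in photoreceptors were mostly silent in these cells. Of 13 genes on the list of photoreceptor cyclic GMP genes, 4 could be tested, Rd3 included. With shHdac1 0 of the 4 were called by edgeR (1 at an unadjusted p under 0.05, 0 by DESeq2). Guca1a, an activator of the same cyclases, read 0.932 CPM in shLuc and 0.711 in shHdac2 (log2 difference -0.38, SE 0.69). It rose with JNJ at 24 h from 0.267 to 2.75 CPM (log2 change 3.34, SE 0.48, adjusted p = 0.000354, edgeR). Cngb1, a subunit of the rod cyclic GMP channel, rose as well (2.13, SE 0.67, adjusted p = 0.0272, edgeR). The 8 photoreceptor markers summed to 0.525 to 1.33 CPM in shHdac2 and 0.662 to 1.43 in shLuc, and 0 of 8 averaged above 1 CPM in either. Rcvrn and Pde6b had no count in shHdac2 or in shHdac1, and Crx and Nrl had none in shLuc.

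Dcpp1 was higher than in shLuc with both other hairpins and varied widely among drug libraries. It read 12.0, 12.0 and 10.6 CPM in shLuc, 26.7, 29.0 and 44.7 in shHdac1, and 46.5, 78.6 and 48.7 in shHdac2. The 3 groups did not overlap. The share of all genes tested without overlap was 16.7% for shHdac1 against shLuc, 21.2% for shHdac2 against shLuc and 26.7% between the hairpins. The shHdac1 change was 1.54 on the log2 scale (SE 0.25, interval 0.97 to 2.10, adjusted p = 0.033, edgeR), a 2.90-fold rise in 3 of 3 libraries. Its shLuc libraries are those that Dcpp1 was picked against, so this p-value is not independent of the choice. The description for shHdac2 is 2.33 (SE 0.26), 5.02-fold. The shHdac1 call was lost in a fit of all 21 libraries (1.54, adjusted p = 0.627), in a fit of these groups alone (1.53, adjusted p = 0.0845), and without shLuc replicate 1 or 2 or any 1 shHdac1 library (adjusted p from 0.0718 to 0.149).

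Neither JNJ comparison passed for Dcpp1, and the libraries of JNJ 2 h and of both 24 h groups lay far apart. At 2 h Dcpp1 read 39.1, 56.1 and 37.9 CPM in DMSO and 13.8, 77.1 and 33.6 in JNJ, a log2 change of -0.10 (SE 0.72, interval -1.66 to 1.46, adjusted p = 0.948, edgeR). At 24 h it read 5.27, 37.7 and 14.0 CPM in DMSO and 8.37, 36.0 and 51.4 in JNJ, a change of 0.74 (SE 0.73, interval -0.83 to 2.32, adjusted p = 0.467, edgeR). The highest library of a group stood 5.59 times over the lowest in JNJ 2 h, 7.16 times in DMSO 24 h and 6.13 times in JNJ 24 h. It stood 1.48 times over the lowest in DMSO 2 h, 1.13 in shLuc, 1.675 in shHdac1 and 1.689 in shHdac2. Intervals this wide cover changes of more than 2-fold in either direction at 2 h. In the order over 21 libraries shLuc had the lowest mean (11.6 CPM) and shHdac2 the highest (58.0). Each group overlapped the next, and DMSO 2 h (44.6) lay between the means of shHdac1 (33.5) and shHdac2.

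**Figure D2:**
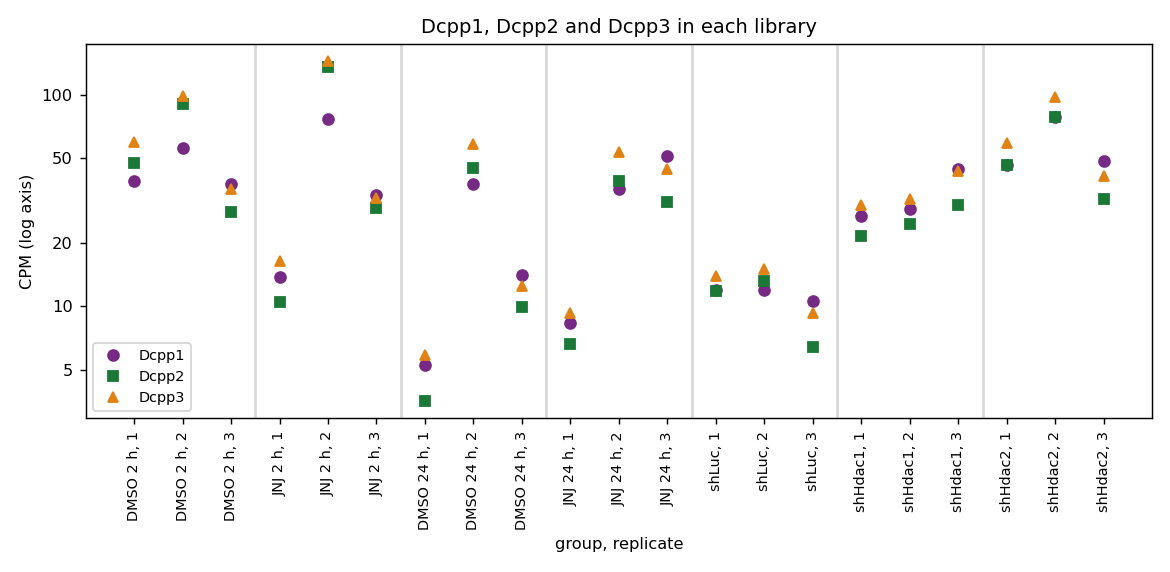
Dcpp1, Dcpp2 and Dcpp3 (CPM, log axis) in each library, ordered by group and replicate. The 3 symbols lie close together in each library and span a wide range between libraries, from 5.27 CPM or less for Dcpp1 and Dcpp2 in DMSO 24 h replicate 1 to 144 CPM for Dcpp3 in JNJ 2 h replicate 2.

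Dcpp2 and Dcpp3 followed Dcpp1. They sit beside it on chromosome 17 and their sequences are near copies: aligned promoter windows were 93.8% identical between Dcpp1 and Dcpp2 and 95.1% between Dcpp1 and Dcpp3, and transcripts 89.95% and 93.4%. Of 543 windows of 75 bases in Dcpp1 transcripts, 189 (34.8%) also occur in Dcpp2 or Dcpp3. No source used here says how reads with several matches were counted, and the split between the 3 genes is therefore uncertain. With shHdac2, Dcpp2 differed from shLuc by 2.32 on the log2 scale (SE 0.36) and Dcpp3 by 2.37 (SE 0.32). With shHdac1, Dcpp2 was at 1.27 (SE 0.35, adjusted p = 0.17, edgeR) and Dcpp3 at 1.46 (SE 0.32, adjusted p = 0.085, edgeR). All 3 genes of the family were under an unadjusted p of 0.05 there, as were 1687 of all 13612 genes tested. DESeq2 called 3 of 3, and 4.27% of all genes tested. With reads that may be shared, the 3 genes are not separate results, and they too are set against the shLuc libraries used in the choice.

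Summed over the 3 genes, the family read 26.3 to 40.3 CPM in shLuc. It read 78.2 to 118 CPM with the Hdac1 hairpin and 122 to 254 with the Hdac2 hairpin. In the drug groups the sums ran from 14.7 to 356 CPM. Dcpp1 supplied 21.7 to 40.5% of the family's counts. Its share was highest in the replicate 3 library in 7 of 7 groups, at 35.4 to 40.5%, against 21.7 to 35.8% in replicates 1 and 2. So the balance within the family moved with the replicate number, and the part of this in the changes above was not tested. Of 7 salivary gland markers, Bpifa2, Smgc and Smr3a had no count in any hairpin library. The whole list summed to 3.58 to 5.25 CPM in shLuc. The sums were 2.38 to 2.77 CPM with the Hdac1 hairpin and 5.46 to 6.81 with the Hdac2 hairpin.

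**Figure D3:**
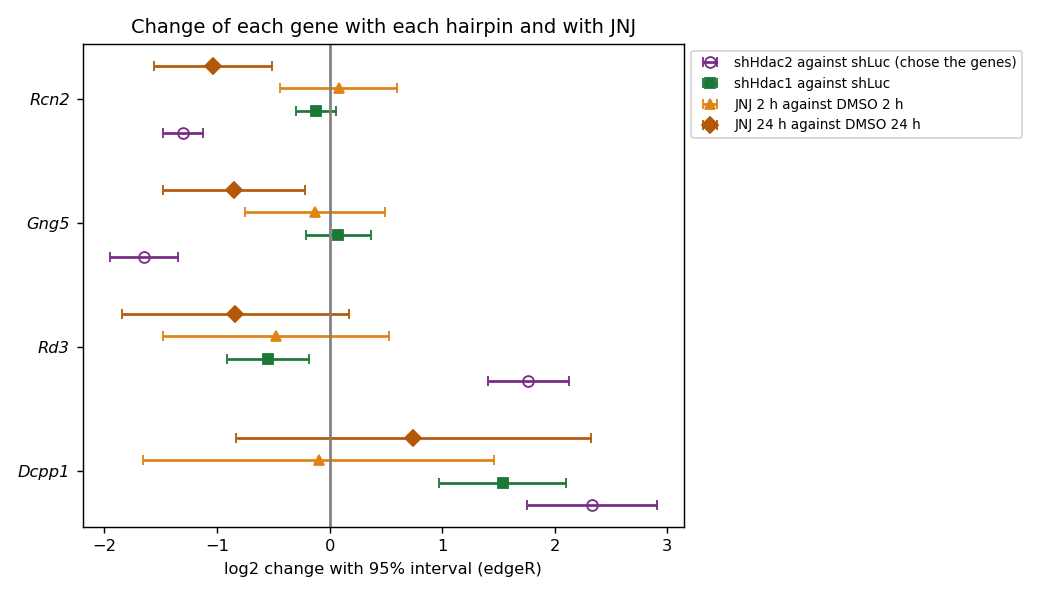
The log2 change of each gene with its 95% interval (edgeR) for the Hdac2 hairpin (open circles, the values that picked the genes), the Hdac1 hairpin and JNJ at 2 h and 24 h. The intervals for JNJ at 24 h lie below 0 for Rcn2 and Gng5, the Hdac1 hairpin's lies above 0 for Dcpp1, and those of Dcpp1 with JNJ are the widest.

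The hairpins were also set against each other, as a description, since this uses the shHdac2 libraries. Levels in shHdac1 were above those in shHdac2 by 1.18 on the log2 scale for Rcn2 (SE 0.08) and 1.73 for Gng5 (SE 0.13). They were below by 2.31 for Rd3, where shHdac1 minus shHdac2 was -2.31 (SE 0.16), and by less for Dcpp1, at -0.79 (SE 0.24). The libraries of the hairpins did not overlap for any of the 4, as for 26.7% of all genes tested. Of all genes tested, 2.06% were called between the hairpins.

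Solvent cells gave no called change with time. Between DMSO 24 h and DMSO 2 h, 0 of 4 genes were called by edgeR (0 at an unadjusted p under 0.05, 0 by DESeq2), and 0% of all genes tested were called, with 1417 at an unadjusted p under 0.05. The Rcn2 libraries still did not overlap, with a log2 change of -0.42 (SE 0.24, adjusted p = 0.546, edgeR), nor did those of Dcpp1, at -1.22 (SE 0.73, adjusted p = 0.554, edgeR). Groups without overlap were found for 17.2% of all genes tested in that comparison.

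**Figure D4:**
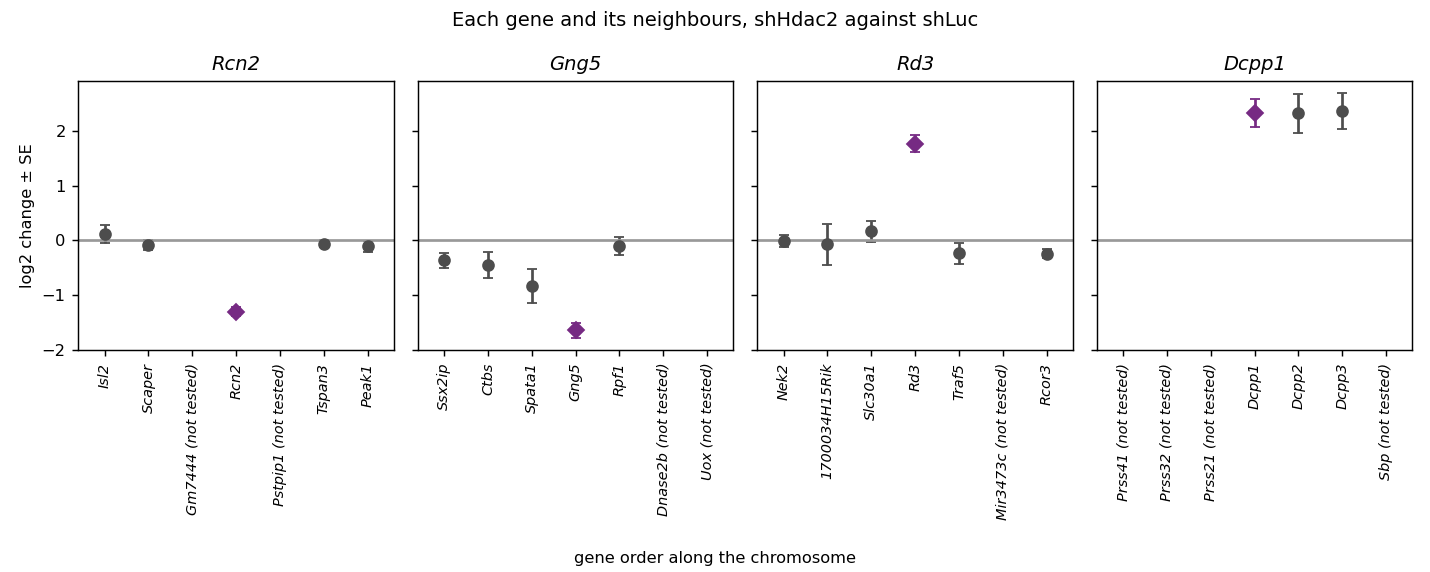
The log2 change ± SE in shHdac2 against shLuc for each gene (diamond) and up to 3 genes of the table on either side (circles), in chromosome order. Beside Rcn2 and Rd3 the neighbours lie near 0, the 3 genes before Gng5 lie below 0, and Dcpp2 and Dcpp3 lie level with Dcpp1.

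The genes next to Rcn2 and Rd3 on their chromosomes stayed near their shLuc level in shHdac2. The RefSeq order gave 24 neighbours, 15 of them expressed enough for a log2 difference. As near copies of the picked Dcpp1, Dcpp2 and Dcpp3 are not separate results, at 2.32 (SE 0.36) and 2.37 (SE 0.32). The other 13 had log2 differences from -0.83 to 0.17. Beside Rcn2, on chromosome 9, Isl2 was at 0.11 (SE 0.16), Scaper at -0.09 (SE 0.09), Tspan3 at -0.06 (SE 0.07) and Peak1 at -0.11 (SE 0.10). Beside Rd3, on chromosome 1, the zinc exporter gene Slc30a1 was at 0.17 (SE 0.19), Traf5 at -0.24 (SE 0.19), the co-repressor gene Rcor3 at -0.25 (SE 0.08) and the mitotic kinase gene Nek2 at -0.02 (SE 0.11).

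Gng5's 3 neighbours on 1 side were below their shLuc level, none of them called. On chromosome 3, Spata1 was at -0.83 (SE 0.31), Ctbs at -0.46 (SE 0.24) and Ssx2ip at -0.37 (SE 0.14), while Rpf1 on the other side was at -0.10 (SE 0.16). With JNJ at 24 h, Rpf1, a gene of ribosome assembly, fell by 0.88 on the log2 scale (SE 0.22, adjusted p = 0.00942, edgeR), and it had already fallen at 2 h by 0.97 (adjusted p = 0.0134, edgeR). Nek2, beside Rd3, fell at 24 h (-0.95, SE 0.26, adjusted p = 0.0128, edgeR), and Peak1, beside Rcn2, rose (0.58, SE 0.20, adjusted p = 0.0367, edgeR). Isl2, on the other side of Rcn2, rose at 2 h (1.12, adjusted p = 0.0105, edgeR). In all, 3 of 17 neighbours tested were called with JNJ at 24 h and 2 of 17 at 2 h. Of all genes tested, 33.1% and 13.7% were called, so both shares of neighbours were below the background. On chromosome 17 the genes before Dcpp1 (Prss41, Prss32 and Prss21, serine proteases) and Sbp after Dcpp3 were too low to test.

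Rcn2 and Gng5 had similar profiles over the 21 libraries (Pearson r = 0.815 of log2 CPM). The other pairs ran from -0.593 (Rcn2 and Rd3) to 0.171 (Rd3 and Dcpp1). These values, and those that follow, are descriptions over libraries that share groups, with the shHdac2 libraries that picked the genes among them. Among 10738 genes of at least 5 CPM, the profiles most like Rcn2's were those of Ociad1 (r = 0.883), Atad1 (0.874) and Mbtps1 (0.870). In shHdac2 these differed from shLuc by -0.25 (SE 0.10), -0.56 (SE 0.14) and -0.43 (SE 0.10). Most like Gng5 were Prkar1a (0.910), a regulatory subunit of protein kinase A, Rap2c (0.906), a small GTPase, and Tma7 (0.895). Their shHdac2 differences were -0.72 (SE 0.07), -0.77 (SE 0.09) and -0.99 (SE 0.13). With JNJ at 24 h, among the libraries that also chose them, the log2 differences of these 6 ran from -0.75 (SE 0.25, Rap2c) to -0.01 (SE 0.17, Prkar1a), as a description.

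Most like Rd3 were Col9a1 (r = 0.922), a collagen gene, Dscam (0.886), a neuronal adhesion gene, and Erc2 (0.886), a gene of the presynaptic active zone. Col9a1 came closest in size with shHdac2, at 1.46 (SE 0.17), against 0.63 (SE 0.21) for Dscam and 0.12 (SE 0.09) for Erc2. With shHdac1 Col9a1 was at 0.29 (SE 0.16). With JNJ at 24 h its difference from DMSO was -1.35 (SE 0.48), also a description, since these libraries helped to choose it. Most like Dcpp1 were Dcpp3 (r = 0.966) and Dcpp2 (0.956), and after them Socs5 (0.832), a suppressor of cytokine signalling. Socs5 differed from shLuc by 0.39 with shHdac1 (SE 0.08) and by 0.40 with shHdac2 (SE 0.08).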

How the data were processed

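RNA of 21 SMB21 libraries was measured by RNA-seq (TruSeq Stranded mRNA from 500 ng of total RNA, single-end reads of 75 bases, per the labels' protocols). The submitters' processing notes name STAR 2.5.1b and the mm9 build. The authors deposited raw read counts per gene symbol; no source used here gives the strand, the annotation or the handling of reads with several matches. Sequences and neighbour order come from RefSeq (GRCm38.p6) and transcripts from GENCODE M21, not mm9.

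The 12 drug and the 9 hairpin libraries were fitted apart with edgeR 4.0.16 (R 4.3.3; filterByExpr, minimum count 10, minimum total 15; TMM scaling; group as the only term; two-sided quasi-likelihood tests, Benjamini-Hochberg adjustment over all 14467 or 13612 genes, called at 0.05). CPM use the scaled totals. No pair of libraries within a group agreed within sampling noise. In the hairpin groups replicates 1 and 2 came near it, with a chi-square per degree of freedom of 3.58 in shLuc, 4.25 in shHdac1 and 8.76 in shHdac2. Pairs with replicate 3 there ran from 44.9 to 74.9, and pairs in the drug groups from 46.55 to 312. The tests treat the 3 libraries of a group as equally separate. Replicate numbers paired the libraries at 24 h (r of deviations from group means 0.566, 0.656 and 0.609) and, by the same threshold of 0.1, in the hairpin groups (0.245 to 0.798). At 2 h they did so for replicates 2 and 3 (0.651 and 0.585) but not for replicate 1 (-0.00469). With the hairpins, unlike numbers 1 and 2 correlated as well (0.322 for shLuc 2 with shHdac1 1, 0.512 for shHdac1 1 with shHdac2 2), so the number there mainly parts replicate 3 from the others. The pairing was taken from these correlations, not from the labels. Alternatives were RLE, upper-quartile and no scaling, no filter, DESeq2 1.42.0, all 21 libraries in 1 fit, the compared groups alone, a replicate block, and each library left out. The script was tested on simulated data.

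Named genes are the 4 genes, Hdac1 and Hdac2, the 3 genes most like each in profile (placeholder symbols passed over), up to 3 neighbours on either side, and called members of the related lists. A few list members that were not called (Rcn1, and Gng7, Gng10, Gng12 and Guca1a with shHdac2) were named after their values were seen. The genes and lists were chosen with earlier results of these data known.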

Additional observations from a re-analysis of the deposited data

Results flagged for a closer look

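For 3 of the 53 related genes tested (5.66%) the JNJ effect at 24 h differed from that at 2 h by edgeR's test of the difference itself, a share near the 4.24% of all genes called there. Gng7 read 20.1 CPM with JNJ and 19.96 with DMSO at 2 h, and 52.9 and 19.1 at 24 h, a log2 difference of the effects of 1.46 (SE 0.33, adjusted p = 0.0283, edgeR). Gnal read 1.02 and 0.499 CPM at 2 h and 8.59 and 0.579 at 24 h, a difference of 2.85 (SE 0.68, adjusted p = 0.0368, edgeR). Guca1a read 0.512 and 0.521 CPM at 2 h and 2.75 and 0.267 at 24 h, a difference of 3.38 (SE 0.66, adjusted p = 0.0177, edgeR).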

How the results depend on the processing

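Of 467 values under other settings, 414 stayed the same. For a tested change this means the same direction and side of the threshold, and for a share of genes called, within 1.5 times. The differences that use shHdac2 have no test. For them it means the same sign and a move smaller than the SD of log2 CPM within groups. The shHdac2 differences kept their sign throughout. Gng5 with JNJ at 24 h lost its call with upper-quartile scaling (-0.74) and unscaled totals (-0.69), and ran from -0.97 to -0.78 with each library left out. Dcpp1 with shHdac1 lost its call with all 21 libraries (1.54, adjusted p = 0.627) and with the compared groups only (1.53, adjusted p = 0.0845), and ran from 1.27 to 1.68 with each library left out. The difference of the Rcn2 effects of JNJ missed the threshold with RLE, upper-quartile and no scaling and with no filter. It passed with DESeq2 (-1.09, adjusted p = 0.028) and with all 21 libraries (-1.11, adjusted p = 0.0134, edgeR). It ran from -1.39 to -0.95 with each library left out, where 1 of 12 fits passed. The replicate block brought it past the threshold as well (-1.10, adjusted p = 0.0269), as it did Rd3 with JNJ at 24 h (-0.78, adjusted p = 0.0484); the block changed no other call of the 4 genes. Rd3 with shHdac1 ran from -0.66 to -0.46 with each library left out. Without single libraries the sign turned for uncalled values: with JNJ at 2 h Rcn2 ran from -0.0904 to 0.35, Gng5 from -0.44 to 0.14 and Dcpp1 from -0.91 to 0.31, the difference of the Rd3 effects from -0.79 to 0.0475, and Rd3 in DMSO 24 h against 2 h from -0.13 to 0.70. Where values moved, the cause was not tested.

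The share of all genes called moved more. It ran from 0.0376% (compared groups only) to 4.27% (DESeq2) for shHdac1, from 0.141% to 6.57% under the same settings for shHdac2, from 0.522% (all 21 libraries) to 6.51% (replicate block) between the hairpins, from 4.79% (compared groups only) to 23.9% (replicate block) for JNJ at 2 h, from 3.10% (no filter) to 14.7% (replicate block) for the difference of the JNJ effects, and from 0% to 0.747% (replicate block) for DMSO over time. For Rd3, at 1.15 to 3.84 CPM in the drug libraries, the spread between libraries and the low counts limit what can be told.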
